A study of Homo sapiens with 24 samples.

Results

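The genes described here are 10 regulators of the passage from G1 into S phase: the cyclins CCND1, CCND3, CCNE1 and CCNE2, the cyclin-dependent kinases CDK4 and CDK6, the kinase inhibitors CDKN1A and CDKN1B, the retinoblastoma gene RB1 and the transcription factor gene E2F1. They were taken by gene symbol from a count table of 58721 genes, and all 10 passed the filter on low counts in each fit. Polyadenylated RNA was measured by 3′ RNA-seq, in which reads start near the 3′ end of transcripts, in 2 bladder cancer cell lines: RT112, classed as luminal papillary (LumP), and SCaBER, classed as basal/squamous (Ba/Sq). Cells were transfected in a lipid reagent with a control siRNA (siControl), with siZBED2-1 or siZBED2-2, siRNAs that target ZBED2, with an siRNA against FOXA1 (siFOXA1), or with siFOXA1 together with either ZBED2 siRNA (siFOXA1+siZBED2-1 and siFOXA1+siZBED2-2, the double knock-downs). The design had 12 groups of 2, or 24 libraries. All libraries, siControl included, received a transfected siRNA, so there was no untransfected group. The labels name a single FOXA1 siRNA, and each line was grown in its own medium, RT112 in RPMI and SCaBER in DMEM, so that line and medium cannot be told apart. FOXA1 belongs to the forkhead family and helps to set the luminal programme of urothelium. The ZBED2 protein binds DNA through a zinc finger.

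Cyclins of the D type bind CDK4 or CDK6 when growth signals arrive, and these kinases phosphorylate the RB1 protein. Unphosphorylated RB1 holds E2F factors at their target genes and keeps them silent, and its phosphorylation frees E2F1 to switch on the genes of DNA synthesis together with CCNE1, CCNE2 and E2F1 itself. The E cyclins then activate CDK2, which completes the phosphorylation of RB1. CDKN1A, a classic target of p53, and CDKN1B block the CDK2 complexes and help to assemble those of CDK4 and CDK6. In bladder cancer this pathway is altered at many points, among them RB1, CCND1, CCNE1, E2F3 and the inhibitor gene CDKN2A.

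Total counts ran from 4425404 to 5207195 per library in RT112 and from 4519668 to 6119210 in SCaBER. A count of 3, which is what a count of 0 still allows, was worth between 0.474 and 0.678 CPM, the usual count of a gene scaled to library size, here with TMM factors set over the 24 libraries. That floor covers counting error only. Luminal markers had a summed level of 2770 to 4910 CPM in RT112 and 869 to 1380 in SCaBER, where KRT20, UPK1A and UPK3A had no count, and basal markers 540 to 1020 CPM in RT112 and 3350 to 5480 in SCaBER. Under siControl 8 of 8 tested luminal markers were called higher in RT112. Of 10 basal markers 8 were called higher in SCaBER and 1 in RT112, beside 33.6% of all genes called in either direction. Of 10 markers of leukocytes, fibroblasts and endothelium, 4 in RT112 and 6 in SCaBER had over 3 counts in any library, their summed level was 8.64 to 59.3 CPM in RT112 and 4.1 to 15.3 in SCaBER, and COL3A1 was at 0 in both lines, COL1A2 in RT112 and CD3E in SCaBER. FOXA1 in RT112 stood at 41.9 and 41.4 CPM under siControl and at 6.86 and 9.56 under siFOXA1, a call (log2 −2.36, adjusted p 5.68e-05), while in SCaBER it had only 20 and 28 counts under siControl against 4 and 6 under siFOXA1, which did not pass (adjusted p 0.272), and 14 and 1 with siZBED2-1. ZBED2 in RT112 had 101 and 92 counts under siControl, 12 and 0 with siZBED2-1, 38 and 36 with siZBED2-2 and 27 and 7 with siFOXA1 alone, where ZBED2 was thus called lower too (log2 −2.48, adjusted p 0.0325). In SCaBER it had 101 and 96 counts, then 12 and 40 with siZBED2-1 and 48 and 100 with siZBED2-2, so the library labelled SCaBER siZBED2-2 replicate 2 kept its target near the control count. The fall of ZBED2 with siZBED2-1 was called in RT112 (log2 −3.97, edgeR adjusted p 0.00624) and in SCaBER (−1.96, 0.00848). With siZBED2-2 it did not pass in RT112 (−1.52, 0.903) or SCaBER (−0.61, 0.844). The libraries of RT112 siZBED2-2 differed most from each other (chi-square per gene 18, against 5.3 to 9.04 in the other 11 groups), and mitochondrial counts made up 16.4% of the first and 8.22% of the other.

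The stretch before the start site was examined for the members whose levels the results turn on. RefSeq windows of 250 bases (GRCh38.p14) matched 8 of the 10 members, with 11 start sites in all, and none was matched for CCND1 and CCNE2. The only window of RB1 lies before a start far inside the gene, so the stretch before its first exon was not examined. Of these 11 windows 1, that of E2F1, held any of 4 E2F sites (TTTCCCGC, TTTGGCGC, TTTCGCGC and TTTGCCGC, either strand), which 2.79% of all 35116 windows of this length held. Of the 40 E2F target genes described below 37 had 50 windows, of which 15 (30%), in 14 genes, held one. E2F1 lies on chromosome 20 (33675477 to 33686385, RefSeq), and its window chr20:33686386-33686635, on the minus strand, is shown with these sites in capitals. They begin 33 and 20 bases before the start and do not overlap.
E2F1: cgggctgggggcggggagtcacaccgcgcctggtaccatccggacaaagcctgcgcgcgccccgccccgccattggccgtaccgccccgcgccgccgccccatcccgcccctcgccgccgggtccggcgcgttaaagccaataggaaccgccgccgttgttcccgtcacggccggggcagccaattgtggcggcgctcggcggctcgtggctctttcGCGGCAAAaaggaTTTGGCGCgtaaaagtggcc
CDK4 is on chromosome 12 (57747727 to 57752310). In its window chr12:57752311-57752560, on the minus strand, 3 E boxes (CACGTG, the same on both strands) are in capitals, a motif that 6.34% of all windows held and no other member window did.
CDK4: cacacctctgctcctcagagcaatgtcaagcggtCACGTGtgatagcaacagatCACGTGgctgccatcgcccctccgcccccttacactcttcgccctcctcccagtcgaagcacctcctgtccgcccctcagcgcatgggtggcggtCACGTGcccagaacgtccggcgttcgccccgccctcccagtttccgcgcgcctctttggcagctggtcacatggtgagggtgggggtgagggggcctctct
The GC box GGGCGG, on either strand, was found in 8 of the 11 member windows and in 42.6% of all windows. It is in capitals in the windows of CCNE1 (chromosome 19, 29811991 to 29824312; window chr19:29811741-29811990, plus strand), CDK6 (chromosome 7, 92604921 to 92836573; window chr7:92836574-92836823, minus strand, before the outermost of its starts) and CDKN1A (chromosome 6, 36676463 to 36687332; window chr6:36678464-36678713, plus strand, before a start inside the gene's span), members with called changes described below. The last pair of boxes of CDKN1A overlaps by a single base.
CCNE1: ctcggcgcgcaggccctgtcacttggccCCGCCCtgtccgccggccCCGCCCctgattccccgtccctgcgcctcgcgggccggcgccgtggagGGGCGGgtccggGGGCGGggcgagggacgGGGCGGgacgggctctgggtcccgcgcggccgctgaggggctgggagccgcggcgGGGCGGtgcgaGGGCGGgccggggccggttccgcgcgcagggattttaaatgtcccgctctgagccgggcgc
CDK6: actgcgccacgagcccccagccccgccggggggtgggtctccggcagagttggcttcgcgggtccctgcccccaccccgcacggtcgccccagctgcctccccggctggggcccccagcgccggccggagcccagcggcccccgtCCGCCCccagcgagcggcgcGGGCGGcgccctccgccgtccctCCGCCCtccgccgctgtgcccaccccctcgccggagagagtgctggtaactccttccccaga
CDKN1A: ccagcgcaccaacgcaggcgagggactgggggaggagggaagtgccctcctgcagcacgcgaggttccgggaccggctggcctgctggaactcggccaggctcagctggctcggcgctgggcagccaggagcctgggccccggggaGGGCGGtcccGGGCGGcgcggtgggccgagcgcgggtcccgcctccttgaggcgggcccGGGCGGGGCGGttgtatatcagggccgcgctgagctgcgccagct
The forkhead site TGTTTAC and the element TTTGAA, found in 2.98% and 13.3% of all windows on either strand, were in none of the 11. These are matches of letters only.

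Before the treatments were compared, the lines were set against each other under siControl. RT112 had less CCND1 and CDK6 and more CCNE1 and CCND3 than SCaBER, 4 of 10 members called beside 33.6% of all 14823 genes tested. A gene was called when its edgeR quasi-likelihood test gave a Benjamini-Hochberg adjusted p under 0.05. CCND1 stood at 169 and 147 CPM in RT112 and at 510 and 436 in SCaBER, 3-fold lower (log2 fold change −1.58, standard error SE 0.14, adjusted p 3.49e-11). CDK6 had 93.8 and 72.8 CPM in RT112 against 302 and 208 in SCaBER (log2 −1.62, SE 0.17, adjusted p 3.22e-09). The lines did not overlap in either gene. CCNE1 went the other way, with 29.2 and 26.7 CPM in RT112 and 7.66 and 2.16 in SCaBER (log2 2.50, SE 0.64, adjusted p 0.00233), and without SCaBER siControl replicate 2 that call was lost (log2 1.86, adjusted p 0.063), while without replicate 1 it was larger (3.68, adjusted p 0.00105). CCND3 was at 91.8 and 90.8 CPM in RT112 and 60 and 63.5 in SCaBER (log2 0.56, SE 0.18, adjusted p 0.0166), and its adjusted p rose to between 0.0724 and 0.13 when any of the 4 libraries was left out and to 0.0963 with no filter on low counts. The remaining 6 members did not pass. CDK4 in particular stood at 154 ± 1.11 CPM (SD, n = 2) in RT112 and 154 ± 6.82 in SCaBER, and RB1 at 48.8 ± 14.2 and 45 ± 2.43.

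**Figure D1:**
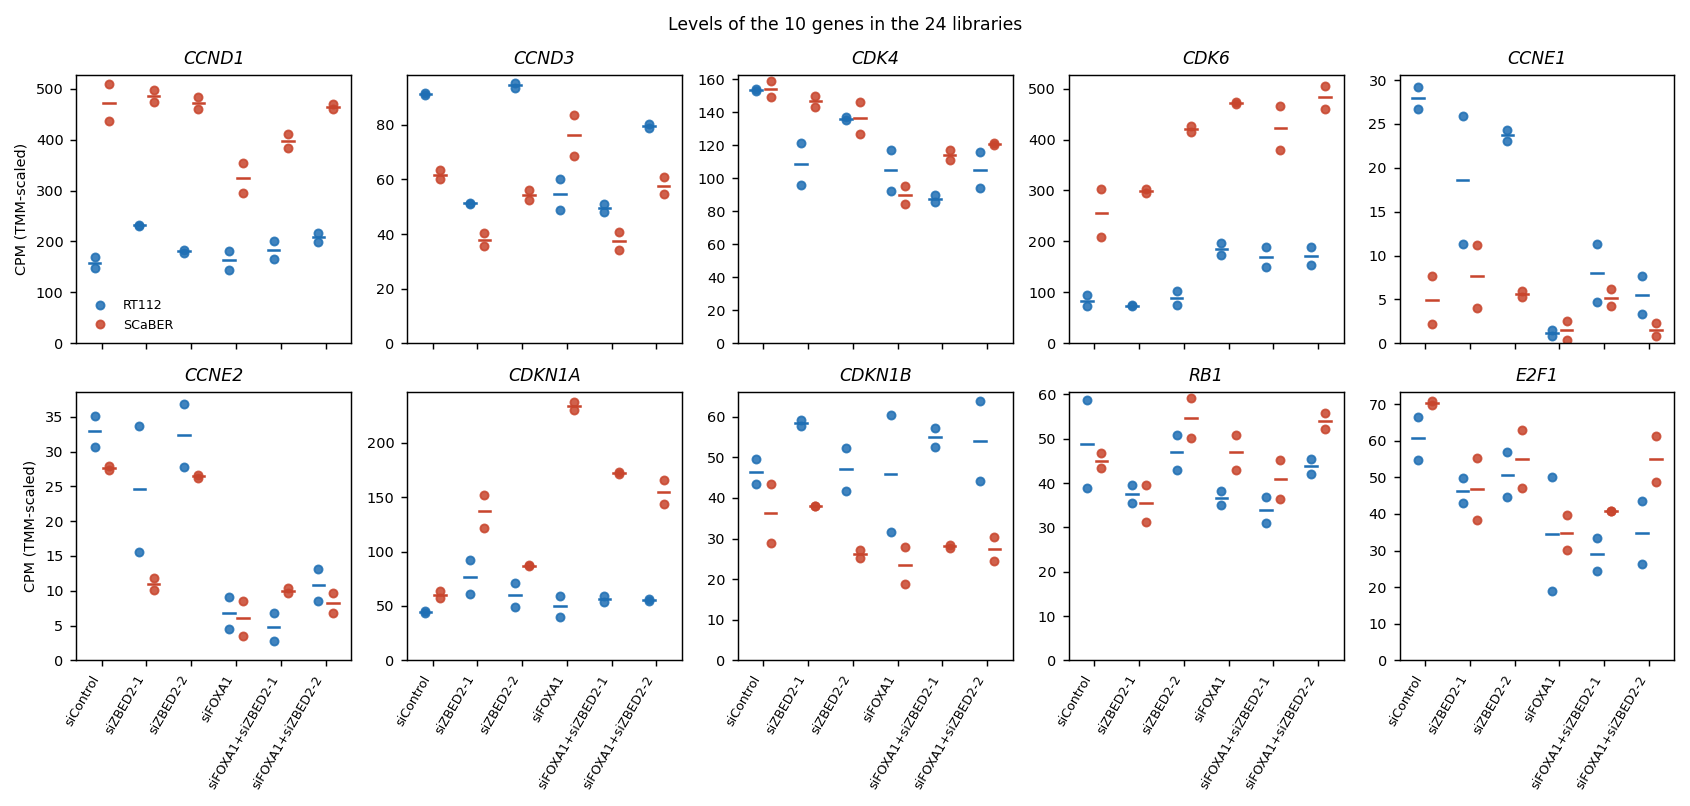
Level of each gene in every library, as TMM-scaled CPM (linear axis from 0) by siRNA treatment. Points are the 2 libraries of a group, bars their mean, RT112 in blue and SCaBER in red. CCNE2 and CDK4 were lower and CDK6 was higher in both siFOXA1 libraries than in both siControl libraries of either line, and CDKN1A reached 230 and 237 CPM in SCaBER with siFOXA1.

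The FOXA1 siRNA was compared with siControl to see how these genes changed with it. With a single FOXA1 siRNA, effects through FOXA1 and other effects of the siRNA cannot be told apart. The fall of FOXA1 itself did not pass in SCaBER (edgeR adjusted p 0.272), and in RT112 ZBED2 was called lower too. In both lines CDK6 rose and CCNE2 and CDK4 fell. RT112 also had calls of lower CCNE1, nearly at the limit of detection, and lower CCND3. SCaBER had calls of lower CCND1 and E2F1 and higher CDKN1A. Of these genes only CCND3 and CDKN1A were called in the test between lines described below. In RT112 5 of 10 members were called, 1 higher and 4 lower, beside 23.3% of 13264 genes tested. In SCaBER 6 were called, 2 higher and 4 lower, beside 17.8% of 13129 genes. The median log2 fold change of the members was −0.50 in RT112 and −0.60 in SCaBER, and that of all genes −0.01 and −0.02. In these bulk samples less RNA per cell and fewer cells in a phase that expresses a gene cannot be told apart. The share of counts from the mitochondrial genome moved with the treatment, from 17.8% and 12.2% under siControl to 21.4% and 22.7% under siFOXA1 in RT112 and from 9.73% and 10.7% to 12.9% and 12.5% in SCaBER, and its part in the results was not tested. Of the markers of other cell types tested, COL1A1 rose in RT112 (log2 3.11, adjusted p 5.86e-07). PECAM1 fell there (log2 −7.22, SE 2.04, adjusted p 0.0112), though not every fit with a library left out called it. In SCaBER 0 of 1 of these markers was called. Their part was not tested either.

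The D cyclins and their kinases did not move as a block. CDK6 in RT112 rose from 93.8 and 72.8 CPM to 196 and 173 (log2 1.13, SE 0.19, adjusted p 6.80e-05). In SCaBER it went from 302 and 208 to 469 and 473 (log2 0.87, SE 0.14, adjusted p 1.28e-05), and both siFOXA1 libraries lay above both controls in each line. CDK4, the other kinase of the D cyclins, moved the opposite way. It was at 153 and 154 CPM in the RT112 controls and at 117 and 92.4 with siFOXA1 (log2 −0.57, SE 0.17, adjusted p 0.0188). The groups did not overlap, but the call was lost in 3 of the 4 fits with a library left out, without siControl replicate 1 (adjusted p 0.0766), siControl replicate 2 (0.0853) or siFOXA1 replicate 2 (log2 −0.40, adjusted p 0.252). In SCaBER CDK4 fell from 149 and 159 CPM to 95.5 and 84.3 (log2 −0.80, SE 0.15, adjusted p 0.000157), and it was called with any library left out, at adjusted p values up to 0.00562. CCND1 was called in SCaBER only, though the test of the difference between lines did not pass (edgeR adjusted p 0.104). SCaBER went from 510 and 436 CPM to 355 and 296 (log2 −0.56, SE 0.12, adjusted p 0.00077), without overlap, while in RT112 the siFOXA1 libraries at 144 and 182 CPM enclosed the controls at 169 and 147 (log2 0.03, SE 0.15, adjusted p 0.926). CCND3 fell in RT112, from 91.8 and 90.8 CPM to 60.3 and 48.9 (log2 −0.75, SE 0.19, adjusted p 0.00445). Without siFOXA1 replicate 2 it had a log2 fold change of −0.60 and an adjusted p of 0.0945. In SCaBER CCND3 was at 68.7 and 83.6 CPM with siFOXA1, both above the controls at 60 and 63.5, a difference that did not pass (log2 0.28, SE 0.20, adjusted p 0.367).

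Both E cyclins, the activators of CDK2, were low after siFOXA1. CCNE1 in RT112 had 134 and 145 counts under siControl and 4 and 7 under siFOXA1, or 29.2 and 26.7 CPM against 0.807 and 1.52. That is 23.9-fold lower (log2 −4.58, SE 0.60, adjusted p 3.58e-06), and it was the largest change of any member in any comparison against siControl. With any single library left out the log2 value stayed between −5.08 and −4.19 and was called. In SCaBER CCNE1 was scarce from the start, at 41 and 11 counts under siControl and 2 and 11 under siFOXA1. The lowest of these is under the floor of 3 counts, the groups overlapped in CPM (7.66 and 2.16 against 0.409 and 2.49), and the difference did not pass (log2 −1.79, SE 0.86, adjusted p 0.162), though without siFOXA1 replicate 2 it did (log2 −3.54, adjusted p 0.0477). CCNE2 fell alike in both lines, 4.84-fold in RT112, from 30.7 and 35.1 CPM to 9.08 and 4.56 (log2 −2.27, SE 0.44, adjusted p 0.000447), and 4.67-fold in SCaBER, from 28 and 27.3 CPM to 3.48 and 8.59 (log2 −2.22, SE 0.39, adjusted p 6.92e-05). No siFOXA1 library reached a control in either line. The size rested in part on 1 library: without siFOXA1 replicate 1 the RT112 value was −2.86 (adjusted p 0.000177), and without siFOXA1 replicate 2 that of SCaBER was −3.01 (adjusted p 1.48e-05).

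Of the inhibitors only CDKN1A in SCaBER passed. It rose 3.82-fold there, from 63.7 and 57 CPM to 230 and 237 (log2 1.93, SE 0.15, adjusted p 1.91e-11), the smallest adjusted p of any member in a comparison with siControl, and with any library left out the log2 value lay between 1.86 and 2.01. In RT112 CDKN1A was at 44.9 and 43.9 CPM under siControl and at 40.2 and 59.3 with siFOXA1, which enclosed the controls (log2 0.15, SE 0.25, adjusted p 0.731). CDKN1B in RT112 was at 43.4 and 49.5 CPM against 31.5 and 60.4 (log2 −0.03, SE 0.26, adjusted p 0.948). In SCaBER it had 29 and 43.5 CPM under siControl and 18.8 and 28 under siFOXA1, both lower, and did not pass (log2 −0.65, SE 0.27, adjusted p 0.0988).

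Of RB1 and E2F1, the repressor and the activator at the end of the pathway, only E2F1 in SCaBER was called. RB1 stood at 38.8 and 58.8 CPM in the RT112 controls and at 38.1 and 35 with siFOXA1 (log2 −0.43, SE 0.25, adjusted p 0.234), and in SCaBER at 46.7 and 43.3 against 42.9 and 50.9 (log2 0.04, SE 0.22, adjusted p 0.933). E2F1 in SCaBER fell from 69.9 and 70.8 CPM to 39.7 and 30.1 (log2 −1.03, SE 0.22, adjusted p 0.00101), without overlap. RT112 had 66.5 and 54.8 CPM in the controls and 50.1 and 18.9 with siFOXA1, both lower, a log2 fold change of −0.82 (SE 0.33) whose adjusted p of 0.0702 missed the threshold. The 2 siFOXA1 libraries differed widely here. Without replicate 1 the value was −1.70 (adjusted p 0.000402), without replicate 2 −0.28 (adjusted p 0.643), with the replicate number as a block −0.88 (adjusted p 0.021), with library size alone −0.91 (adjusted p 0.0443) and with no filter on low counts −0.82 (adjusted p 0.018).

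**Figure D2:**
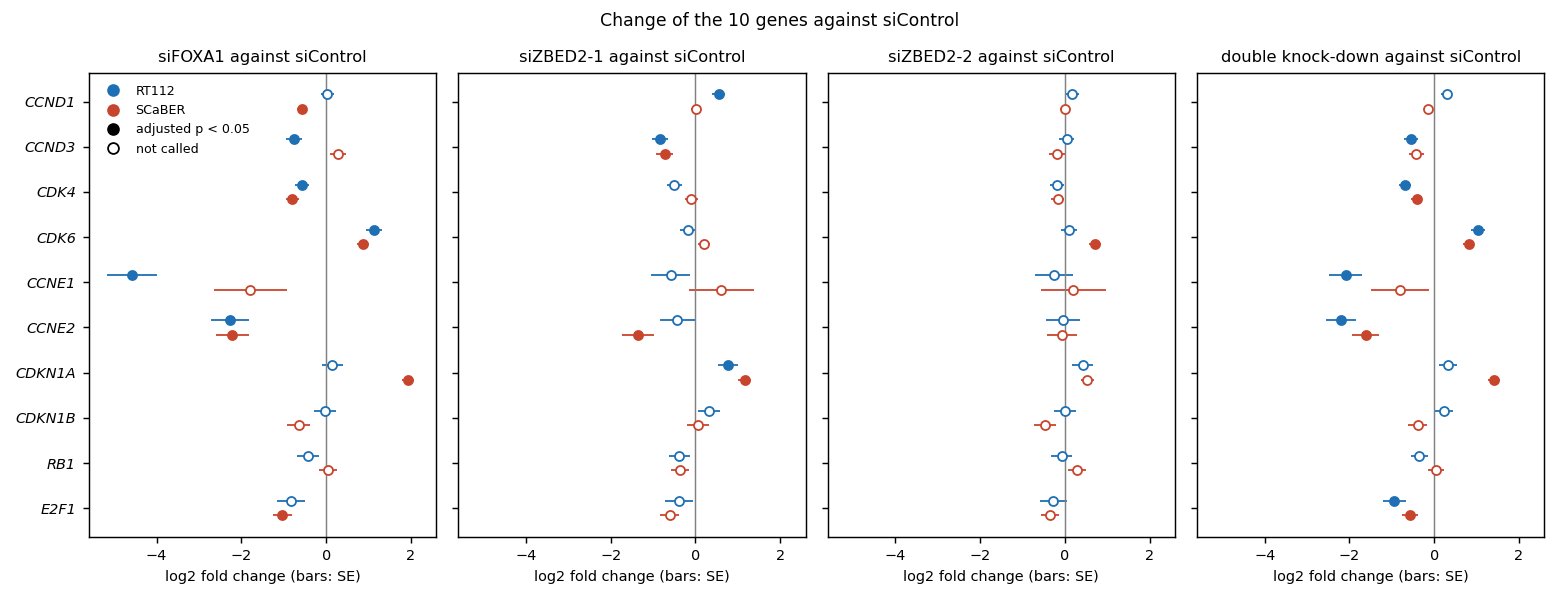
Log2 fold change of each gene against siControl for siFOXA1, siZBED2-1, siZBED2-2 and the mean of the double knock-downs, RT112 in blue and SCaBER in red. Bars are standard errors from edgeR and filled points passed an adjusted p under 0.05. CCNE1 in RT112 at −4.58 and CDKN1A in SCaBER at 1.93 were the extremes under siFOXA1, and with siZBED2-2 only CDK6 in SCaBER (0.72) was called.

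Genes around the members gave the setting of these values. Of 40 E2F target genes of DNA synthesis 26 fell and 0 rose in RT112 with siFOXA1, and 31 fell and 0 rose in SCaBER, with medians of −0.93 and −1.03. Over all genes 23.3% and 17.8% were called, in either direction. In sign, 39 of 40 were lower in RT112 and 40 of 40 in SCaBER. The 22 genes called lower in both lines were 84.6% of those of RT112 and 71.0% of those of SCaBER. With 26 and 31 of the same 40 genes called, a large overlap would arise without any agreement between the lines. RRM2 and RRM1, the subunits of ribonucleotide reductase, MYBL2, a transcription factor of late S phase, and TYMS, which makes thymidylate, led the lists: RRM2 fell by 2.43 on the log2 scale in RT112 (adjusted p 7.51e-08) and by 1.94 in SCaBER (adjusted p 2.03e-09), MYBL2 fell by 2.27 in RT112 (adjusted p 3.51e-06) and fell by 1.73 in SCaBER (adjusted p 2.59e-11), TYMS fell by 2.44 in RT112 (adjusted p 1.46e-05) and RRM1 fell by 1.08 in SCaBER (adjusted p 4.32e-08). Without RT112 siFOXA1 replicate 1 the values of RRM2, MYBL2 and TYMS there were −3.09, −3.11 and −3.13.

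Of 30 other G1/S regulators 24 were tested in RT112, where 5 fell and 1 rose (median −0.70), and 26 in SCaBER, where 5 fell and 0 rose (median −0.31), counts near the 23.3% and 17.8% called over all genes. TFDP1, which encodes the partner that E2F proteins need to bind DNA, fell most clearly in both. It had 119 and 123 CPM in the RT112 controls and 32.1 and 24.3 with siFOXA1 (log2 −2.11, SE 0.24, adjusted p 5.13e-07). In SCaBER it went from 116 and 124 CPM to 18.6 and 15.4 (log2 −2.84, SE 0.21, adjusted p 5.85e-12). SKP2, the ubiquitin ligase subunit that marks the CDKN1B protein for destruction, went from 90.9 and 73.2 CPM to 41 and 30.6 in RT112 (log2 −1.21, SE 0.24, adjusted p 0.000502) and from 108 and 131 to 32.1 and 38 in SCaBER (log2 −1.79, SE 0.20, adjusted p 3.37e-08). No siFOXA1 library overlapped a control for either gene. CKS1B, the cofactor of SKP2, fell by 0.59 in SCaBER (adjusted p 0.00107), and these 3 genes were the ones called lower in both lines. The remaining calls, named after their values were seen, were E2F7 in RT112 and CDK2 and RBL1 in SCaBER, all lower. In RT112 CCNH, part of the kinase that activates CDKs, rose by 1.23 (adjusted p 0.00385) and CDKN2C, an inhibitor of CDK4 and CDK6, fell by 1.96 (adjusted p 0.00436), which without siFOXA1 replicate 2 was −1.57 (adjusted p 0.0792).

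The p53 target genes, of which CDKN1A is one, were mixed. Of 21 tested genes 4 rose and 2 fell in RT112 (median 0.29), and 4 rose and 0 fell in SCaBER (median 0.16), again near the 23.3% and 17.8% of all genes, and SESN2 and PLK3 were higher in both. In RT112 GDF15, a stress cytokine, rose by 2.70 (adjusted p 7.09e-06), ZMAT3 by 1.47 (adjusted p 2.61e-05) and SESN2, a sestrin, by 1.14 (adjusted p 0.00337), while BTG2, an antiproliferative gene, fell by 1.36 (adjusted p 0.00192) and DDB2, a DNA repair gene, by 1.65 (adjusted p 0.0127). The call of SESN2 was lost without siFOXA1 replicate 2 (0.85, adjusted p 0.0764), and that of DDB2 without that library (−1.09, adjusted p 0.187) or siControl replicate 2 (−1.40, adjusted p 0.104), while without siFOXA1 replicate 1 DDB2 was at −2.62. In SCaBER, where CDKN1A rose, BBC3, a promoter of apoptosis, rose by 1.88 (adjusted p 5.5e-07), SESN2 by 1.28 (adjusted p 1.25e-05) and PLK3 by 1.16 (adjusted p 0.00372), the last not without siControl replicate 2 (0.76, adjusted p 0.163). RPS27L, the remaining gene called in SCaBER, was named after its value was seen, as was PLK3 in RT112. Luminal markers fell in 5 of 8 tested genes in RT112 and 2 of 6 in SCaBER, and basal markers rose in 3 and fell in 1 of 9 in RT112 and rose in 2 and fell in 1 of 10 in SCaBER.

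**Figure D3:**
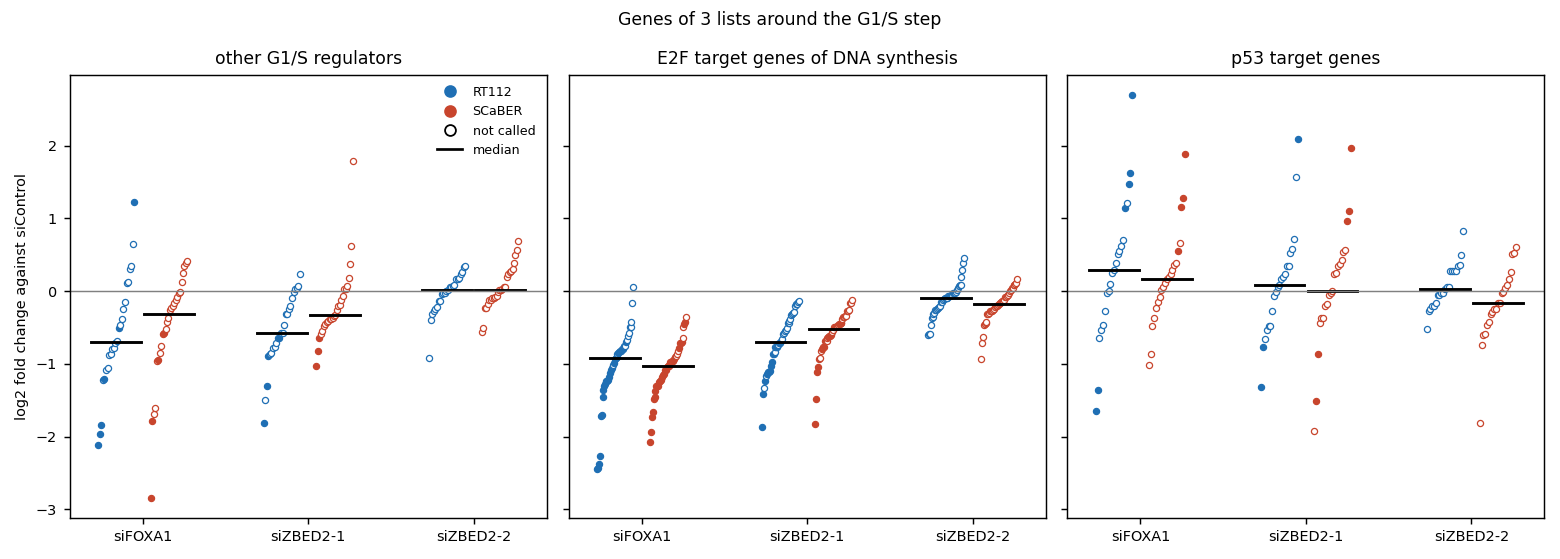
Log2 fold change against siControl of every tested gene of 3 lists for siFOXA1, siZBED2-1 and siZBED2-2, RT112 in blue and SCaBER in red, sorted by value within a column. Filled points passed an adjusted p under 0.05 and black lines are medians. The E2F target genes had medians of −0.93 (RT112) and −1.03 (SCaBER) with siFOXA1, −0.70 and −0.52 with siZBED2-1, and −0.10 and −0.18 with siZBED2-2.

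The ZBED2 siRNAs were compared with the same controls, so their values and those of siFOXA1 share 2 libraries per line. With siZBED2-1 CDKN1A rose and CCND3 fell in both lines, CCND1 rose in RT112 and CCNE2 fell in SCaBER, which made 3 of 10 members called in each line beside 8.8% of genes in RT112 and 4.65% in SCaBER. CDKN1A in RT112 went from 44.9 and 43.9 CPM to 60.6 and 91.9 (log2 0.77, SE 0.24, adjusted p 0.0463). That call was near the threshold and was lost with DESeq2 (adjusted p 0.0525) and without siControl replicate 1 (adjusted p 0.146), siControl replicate 2 (0.22) or siZBED2-1 replicate 2 (log2 0.43, adjusted p 0.563). In SCaBER CDKN1A rose 2.23-fold, from 63.7 and 57 CPM to 122 and 152 (log2 1.16, SE 0.15, adjusted p 4.55e-06), and it was called with any library left out. CCND3 was at 51.5 and 51.1 CPM in RT112, against 91.8 and 90.8 in the controls (log2 −0.83, SE 0.19, adjusted p 0.00506), a value that held with any library left out. In SCaBER it stood at 40.3 and 35.6 CPM against 60 and 63.5 (log2 −0.73, SE 0.20, adjusted p 0.0277), and there the adjusted p lay between 0.0885 and 0.273 with any of the 4 libraries left out. CCND1 in RT112 went from 169 and 147 CPM to 233 and 230 (log2 0.55, SE 0.15, adjusted p 0.024), not called without siControl replicate 2 (log2 0.42, adjusted p 0.31), siZBED2-1 replicate 1 (0.111) or siZBED2-1 replicate 2 (0.12). CCNE2 in SCaBER fell 2.56-fold, from 28 and 27.3 CPM to 11.8 and 10.1 (log2 −1.36, SE 0.37, adjusted p 0.024), with an adjusted p between 0.0992 and 0.219 when 1 of the 4 libraries was left out.

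The other members did not pass with siZBED2-1. CCNE2 in RT112 had 15.6 and 33.7 CPM, 1 library within the range of the controls at 30.7 and 35.1 and 1 below it (log2 −0.43, SE 0.41, adjusted p 0.627). CDK4 in RT112 was at 121 and 96.1 CPM, under the controls at 153 and 154 (log2 −0.50, SE 0.17, adjusted p 0.0733), and with the replicate block it was called (log2 −0.51, adjusted p 0.031). CCNE1 in RT112 had 131 and 51 counts, or 25.9 and 11.3 CPM, and was not called (log2 −0.58, SE 0.46, adjusted p 0.531). E2F1 in SCaBER was at 38.3 and 55.3 CPM, both under the controls at 69.9 and 70.8 (log2 −0.61, SE 0.22, adjusted p 0.121). CDK6, CDKN1B and RB1 passed in neither line. Around them, 11 of 40 E2F target genes fell in RT112 and 15 in SCaBER with 0 higher in either. Over all genes 8.8% and 4.65% were called, in either direction. Of the other G1/S regulators 4 of 24 tested fell in RT112 (CDK2, CDKN2D, TFDP1 and CKS1B). In SCaBER 3 of 26 fell (TFDP1, SKP2 and CKS1B). These genes were named after their values were seen. TFDP1 was at 61.9 and 68.9 CPM in RT112 (log2 −0.89, SE 0.23, adjusted p 0.0121) and at 63.4 and 75.1 in SCaBER (log2 −0.82, SE 0.19, adjusted p 0.00587), calls that were lost in RT112 without siZBED2-1 replicate 1 (adjusted p 0.1) or siControl replicate 2 (0.0618), and in SCaBER without siZBED2-1 replicate 1 (0.129) or siControl replicate 2 (0.0762). Of the 21 p53 target genes tested GDF15 rose and PHLDA3 and TRIAP1 fell in RT112. In SCaBER GDF15, SESN2 and PLK3 rose and XPC and TRIAP1 fell. All were named after their values were seen. Luminal markers rose in 3 of 8 genes in RT112 and in 0 of 6 in SCaBER, with 0 lower, and of the basal markers 2 of 9 rose and 1 fell in RT112 and 6 of 10 rose in SCaBER.

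With siZBED2-2 much less was called, and the fall of ZBED2 itself did not pass in either line. In RT112 0 of 10 members passed the edgeR test, beside 0.166% of all genes. At an unadjusted p under 0.05 there were 0 as well, and DESeq2 called 0. CDKN1A was at 70.8 and 48.9 CPM there, both above the controls at 44.9 and 43.9 (log2 0.42, SE 0.24, adjusted p 0.941). In SCaBER 1 member, CDK6, was called beside 0.625% of genes. It stood at 427 and 415 CPM against 302 and 208 (log2 0.72, SE 0.14, adjusted p 0.00325), without overlap, and without siControl replicate 2 it had a log2 fold change of 0.50 and an adjusted p of 0.237. CDKN1A in SCaBER was at 86.9 and 87.3 CPM, above both controls (log2 0.53, SE 0.15, adjusted p 0.152), and was called by DESeq2 at an adjusted p of 0.0495. The lists gave 0 calls of 40 E2F target genes and 0 of the other G1/S and p53 genes in either line.

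The difference between the siRNAs aimed at ZBED2 was tested itself. In RT112 1 of 10 members differed beside 7.77% of genes: CCND3, at 51.5 and 51.1 CPM with siZBED2-1 and 93.7 and 95.4 with siZBED2-2 (log2 −0.88, SE 0.19, adjusted p 0.00384), a call that held with any library left out. In SCaBER 3 differed beside 4.01%. CDKN1A was higher with siZBED2-1, at 122 and 152 CPM against 86.9 and 87.3 (log2 0.62, SE 0.15, adjusted p 0.0105). CCNE2 was lower, at 11.8 and 10.1 CPM against 26.7 and 26.2 (log2 −1.29, SE 0.37, adjusted p 0.0371), and so was CDK6, at 303 and 294 CPM against 427 and 415 (log2 −0.52, SE 0.14, adjusted p 0.0197). None of these 3 differences had overlapping libraries. With any of the 4 libraries left out CCNE2 had an adjusted p of 0.121 to 0.264 and CDK6 one of 0.0566 to 0.157. CDKN1A lost its call without siZBED2-2 replicate 1 (0.0705), siZBED2-2 replicate 2 (0.0747) or siZBED2-1 replicate 2 (log2 0.46, adjusted p 0.27). Each siZBED2-2 library also had more ZBED2 counts than either siZBED2-1 library of its line, so the siRNA and the depth of knock-down cannot be told apart.

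The double knock-downs were compared with siControl and then with siFOXA1, each time as the mean of both combinations. Against siControl CDK6 rose and CCNE2, CDK4 and E2F1 fell in both lines, CCND3 and CCNE1 fell in RT112 and CDKN1A rose in SCaBER (log2 1.42, SE 0.14, adjusted p 4.51e-09). That made 6 of 10 members in RT112 beside 19.9% of genes and 5 in SCaBER beside 11.5%. E2F1, not called in RT112 with siFOXA1 alone, was at 33.5, 24.5, 43.6 and 26.2 CPM in the 4 double knock-down libraries, all below the controls at 66.5 and 54.8 (log2 −0.94, SE 0.27, adjusted p 0.015), and was not called without siControl replicate 1 (log2 −0.78, adjusted p 0.129). In SCaBER it had 40.9, 40.8, 48.7 and 61.4 CPM (log2 −0.58, SE 0.19, adjusted p 0.0384), an adjusted p that rose to between 0.0666 and 0.191 in 5 of the 6 fits with a library left out and to 0.0529 with DESeq2. CDK6 was at 150 to 189 CPM in RT112 (log2 1.03, SE 0.17, adjusted p 6.26e-05) and at 379 to 506 in SCaBER (log2 0.81, SE 0.12, adjusted p 1.08e-05), above all controls. CCNE2 fell by 2.20 in RT112 (SE 0.36, adjusted p 5.73e-05) and by 1.62 in SCaBER (SE 0.31, adjusted p 0.000343). CDK4 fell by 0.69 in RT112 (SE 0.15, adjusted p 0.00116) and by 0.41 in SCaBER (SE 0.13, adjusted p 0.0299), the latter with an adjusted p of 0.0639 to 0.269 when any of the 6 libraries was left out. CCND3 in RT112 fell by 0.55 (SE 0.16, adjusted p 0.0139), not called without siControl replicate 1 (adjusted p 0.123) or 2 (0.108). Of the 40 E2F target genes 34 fell in RT112 and 25 in SCaBER, with medians of −1.10 and −0.66 and 0 higher. Other G1/S regulators fell in 11 of 24 tested cases in RT112 and in 3 of 26 (TFDP1, SKP2 and CKS1B) in SCaBER. Among p53 target genes GDF15, SESN2 and ZMAT3 rose and BTG2, DDB2 and TRIAP1 fell in RT112, and SESN2, BBC3 and PLK3 rose in SCaBER, again named after their values were seen.

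Adding a ZBED2 siRNA to siFOXA1 left ZBED2 in RT112 at 9, 7, 12 and 4 counts against 27 and 7 with siFOXA1 alone, a fall that did not pass (log2 −1.03, adjusted p 0.573), while in SCaBER it went from 100 and 84 counts to 20, 8, 49 and 57 (log2 −1.85, adjusted p 0.00256). The RT112 values below thus compare groups between which no difference in ZBED2 was called. FOXA1 was not called either, in RT112 (log2 0.28, edgeR adjusted p 0.773) or SCaBER (−2.10, 0.438). The labels name no filler siRNA with siFOXA1 alone, so a change in ZBED2 and the presence of a further siRNA cannot be told apart. In RT112 1 of 10 was called beside 1.96% of genes, and in SCaBER 3 beside 3.84%. The RT112 gene was CCNE1. Its 4 and 7 counts with siFOXA1 compare with 53 and 23 with siFOXA1+siZBED2-1 and 15 and 36 with siFOXA1+siZBED2-2, or 0.807 and 1.52 CPM with 11.3, 4.66, 3.31 and 7.66. All 4 double knock-down libraries lay above both siFOXA1 libraries (log2 2.49, SE 0.58, adjusted p 0.0226) and below both controls at 29.2 and 26.7 CPM (log2 −2.09, SE 0.39, adjusted p 0.00033). With either siFOXA1 library left out the adjusted p was 0.0967 (log2 2.11 without replicate 1, 2.99 without replicate 2). In SCaBER CCNE1 had 23 and 29 counts with siFOXA1+siZBED2-1 and 4 and 11 with siFOXA1+siZBED2-2, beside 2 and 11 with siFOXA1, and did not pass (log2 0.98, SE 0.80, adjusted p 0.617).

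The 3 members called in SCaBER were CDKN1A, CCND1 and CCND3. CDKN1A was lower with a ZBED2 siRNA added, at 173, 171, 144 and 166 CPM against 230 and 237 (log2 −0.51, SE 0.12, adjusted p 0.0117), all 4 below both siFOXA1 libraries and above both controls at 63.7 and 57. CCND1 was at 383, 412, 470 and 460 CPM against 355 and 296 (log2 0.41, SE 0.10, adjusted p 0.0175), again without overlap. CCND3 had 40.7 and 34 CPM with siFOXA1+siZBED2-1 and 54.5 and 60.9 with siFOXA1+siZBED2-2, against 68.7 and 83.6 (log2 −0.70, SE 0.17, adjusted p 0.0103). All 3 calls depended on siFOXA1 replicate 2, without which the adjusted p was 0.146 for CDKN1A, 0.401 for CCND1 and 0.31 for CCND3. CDKN1A was also not called without siFOXA1+siZBED2-2 replicate 1 (0.059), nor CCND1 and CCND3 without siFOXA1+siZBED2-1 replicate 2 (0.0692 and 0.0529). In RT112 CCND3 stood at 48 and 50.9 CPM with siFOXA1+siZBED2-1 and at 78.7 and 80.2 with siFOXA1+siZBED2-2, the latter above siFOXA1 at 60.3 and 48.9, and the mean of both did not pass against siFOXA1 (log2 0.20, SE 0.17, adjusted p 0.631). CDK4 in SCaBER was at 117, 111, 121 and 120 CPM, above siFOXA1 at 95.5 and 84.3 (log2 0.39, SE 0.13, adjusted p 0.0991; 0.0457 with DESeq2). TFDP1 in SCaBER, at 28.7, 24.7, 46.5 and 34.2 CPM against 18.6 and 15.4, was higher (log2 0.96, SE 0.19, adjusted p 0.00211), not without siFOXA1 replicate 2 (0.83, adjusted p 0.076), and 6 of 40 E2F target genes were higher there and 0 in RT112.

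Whether a ZBED2 siRNA gave the same change with and without siFOXA1 was tested by the interaction, which subtracts the mean ZBED2 siRNA change on siControl from that on siFOXA1. The limit of the further siRNA given above holds here too, and siZBED2-2 alone had no called fall of ZBED2. The interaction was called for CCNE1 in RT112 (1 of 10 members, beside 0.611% of genes) and for CDKN1A in SCaBER (1 of 10, beside 2.29%). For CDKN1A the values show the crossing: a ZBED2 siRNA went with higher CDKN1A on siControl, at 122, 152, 86.9 and 87.3 CPM against 63.7 and 57, and with lower CDKN1A on siFOXA1, at 144 to 173 against 230 and 237. The interaction was −1.35 on the log2 scale (SE 0.18, adjusted p 3.37e-05) and lay between −1.44 and −1.28 with any library left out, called each time. For CCNE1 in RT112 a ZBED2 siRNA on siControl left 25.9, 11.3, 24.3 and 23.1 CPM against 29.2 and 26.7, all lower, and on siFOXA1 4 of 4 libraries were higher. That interaction was 2.91 (SE 0.69, adjusted p 0.0475), and it was not called in 7 of the 12 fits with a library left out (adjusted p up to 0.125, without siFOXA1 replicate 2), nor given an adjusted p by DESeq2. E2F1 in SCaBER had an interaction of 0.93 (SE 0.27, adjusted p 0.065) and CDK6 one of −0.52 (SE 0.17, adjusted p 0.101). Both were called with the replicate block, at 0.0305 and 0.0231, and with DESeq2, at 0.0493 and 0.0452. Of the other G1/S regulators 3 were called in SCaBER, all higher, and TFDP1 (1.34, SE 0.25, adjusted p 0.00156) and SKP2 (1.14, SE 0.24, adjusted p 0.00629; 0.0535 without siControl replicate 2) were among them. CKS1B, named here after its value was seen, was the other (0.69, SE 0.16, adjusted p 0.0102). Of the E2F target genes 9 were called higher in SCaBER and 0 in RT112.

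**Figure D4:**
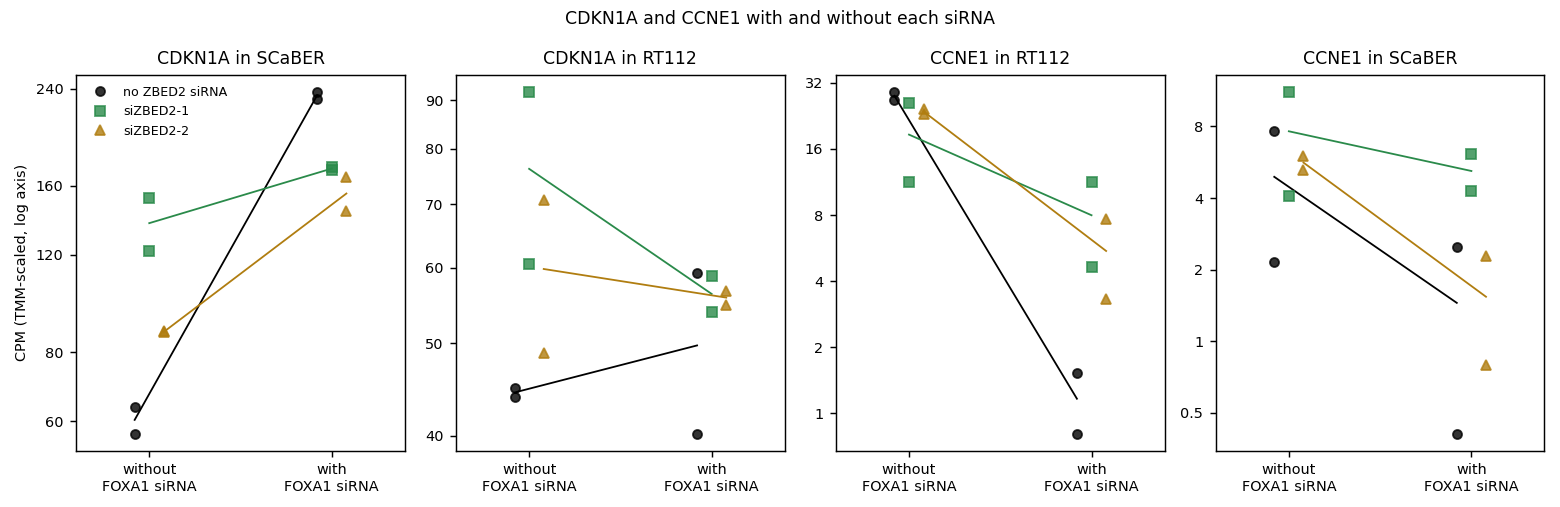
CDKN1A and CCNE1 with and without the FOXA1 siRNA, as TMM-scaled CPM on a log axis, for libraries without a ZBED2 siRNA (black circles), with siZBED2-1 (green squares) and with siZBED2-2 (ochre triangles). Points are libraries and lines join group means. In SCaBER the black line for CDKN1A runs from 63.7 and 57 CPM to 230 and 237 and crosses the others, and in RT112 that for CCNE1 falls from 29.2 and 26.7 to 0.807 and 1.52, under the double knock-downs.

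The response to siFOXA1 was then compared between the lines. It differed for CDKN1A and CCND3, 2 of 10 members beside 2.58% of genes. CDKN1A changed by 0.15 in RT112 and 1.93 in SCaBER, a difference of −1.79 on the log2 scale (SE 0.29, adjusted p 0.000219) that lay between −2.09 and −1.53 with any library left out. CCND3 changed by −0.75 in RT112 and by 0.28 in SCaBER (difference −1.04, SE 0.26, adjusted p 0.0218), and it was called in 2 of the 8 fits with a library left out, with adjusted p values up to 0.168, and at 0.0521 with no filter on low counts. CCNE1, at −4.58 and −1.79, and CCND1, at 0.03 and −0.56, did not pass (differences −2.78, SE 1.09, adjusted p 0.191, and 0.58, SE 0.19, adjusted p 0.104), although CCND1 did with DESeq2 (0.0208). CCNE2, CDK4 and CDK6 had differences of −0.06, 0.22 and 0.27 with SE 0.63, 0.22 and 0.24. E2F1, called with siFOXA1 in SCaBER alone, had a difference of 0.20 (SE 0.43, adjusted p 0.935). Among the other G1/S regulators CDKN2C was called, at −1.96 in RT112 and −0.12 in SCaBER (difference −1.85, SE 0.48, adjusted p 0.0284), and in 2 of 8 fits with a library left out, but not with no filter on low counts (adjusted p 0.0502). For siZBED2-1 0 of 10 members differed between the lines beside 0.735% of genes. At an unadjusted p under 0.05 CCND1 alone passed (0.51, SE 0.19, p 0.0119 in the edgeR fit, adjusted p 0.284), and DESeq2 called 0.

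Over the 12 libraries of a line the members could be ordered by how they moved together. These correlations of log2 CPM are descriptions, since the 12 libraries are 6 treatments with 2 libraries each and share their controls and depth. CCNE2 and E2F1 had r = 0.85 in RT112 and 0.63 in SCaBER, CDK4 and E2F1 0.81 and 0.78, and CCNE2 and CDK4 0.79 and 0.69. CDK6 ran against CCNE2, at −0.78 and −0.53, and CDKN1A against CCNE2 in SCaBER at −0.91 but at 0.06 in RT112. CCND1 and CDK4 had 0.86 in SCaBER and −0.40 in RT112. Among the 11763 genes tested in both lines, likeness to a member was measured as the lower of its correlations in the 2 lines. The nearest to E2F1 were TOP2A (0.87 and 0.88), PRC1 (0.90 and 0.86) and BUB1 (0.90 and 0.86), and to CCNE2 they were HADH (0.92 and 0.93), TYMS (0.96 and 0.90) and NCAPD2 (0.91 and 0.89). CDK4 was nearest to PTGES (0.93 and 0.92), SAMD1 (0.91 and 0.93) and DSCC1 (0.92 and 0.91), and CDK6 to KCTD20 (0.91 and 0.90), FBXO32 (0.88 and 0.87) and LYPD3 (0.91 and 0.83). For CDKN1A they were NABP1 (0.83 and 0.81), CHRAC1 (0.78 and 0.75) and AFF4 (0.72 and 0.69). CCND3 had TMEM14B (0.86 and 0.86), DARS (0.85 and 0.87) and HLCS (0.92 and 0.84), and CCNE1 had TMEM256 (0.85 and 0.81), RPS6KA2 (0.81 and 0.85) and JAG1 (0.78 and 0.79). Lower values were reached by CCND1 with SLC12A2 (0.77 and 0.83), by RB1 with SSX2IP (0.77 and 0.76) and by CDKN1B with NR2F2 (0.66 and 0.76).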

How the data were processed

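Per the labels, RNA of 24 siRNA-transfected cultures was made into 3′ tag libraries with a forward-strand kit. The authors trimmed the reads, aligned them with STAR 2.6.1a to hg38 and counted reads per gene, and the deposited table holds raw counts of 58721 genes, 34121 of them without a count in any library. The submitters' processing notes name hg38, whereas the study's methods name another build, and gene IDs alone were used here. The deposited TPM values were not used.

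Counts were analysed in R 4.3.3 with edgeR 4.0.16 (TMM scaling, filterByExpr with a minimum count of 10 and a minimum total of 15, quasi-likelihood tests, Benjamini-Hochberg adjustment). The 12 libraries of a line shared one fit with 6 treatment groups, and a fit of all 24 gave comparisons between lines. Genes with an adjusted p under 0.05 were called. Scripts were tested on simulated data. Alternatives were DESeq2 1.42.0, other scalings, no filter, the replicate number as a block and leaving out each library. Correlations used log2 CPM after 2 CPM had been added to each value.

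The labels give the number as a batch replicate and do not say that replicates came from separate cultures, so p-values measure the spread between these samples, which may be technical. The labels thus name a shared batch, but the reported fits do not pair libraries by it, and the block is an alternative. Deviations from group means of same-numbered libraries had a mean correlation of 0.0455 over 15 pairs of groups in RT112 (highest 0.0821) and 0.0374 in SCaBER (highest 0.0839).

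The 10 genes and the 6 lists were chosen with earlier results of these data known. All 10 genes, both siRNA targets, up to 3 higher and 3 lower list genes with the smallest p under siFOXA1 in each line, and the 3 genes most like each member could be named. Sequences are from RefSeq.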

Additional observations from a re-analysis of the deposited data

Results flagged for a closer look

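Tests of a difference between effects passed for the following genes, with no explanation weighed. The interaction of siFOXA1 and the ZBED2 siRNAs was called for CCNE1 in RT112 (2.91 on the log2 scale) and for CDKN1A in SCaBER (−1.35). The response to siFOXA1 differed between RT112 and SCaBER for CCND3 (−1.04) and for CDKN1A (−1.79). The values of CDKN1A were called in every alternative run, while those of CCNE1 and CCND3 depended on single libraries. Groups held 2 libraries, too few to look for a sample that stands apart from its group.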

How the results depend on the processing

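Of 45 called values of the 10 genes, 23 were called in every alternative, and 0 changed sign. Under other settings 221 of 225 kept their call, and with 1 library left out 164 of 234 did. The group that lost a library then held 1, which was assumed to vary like the other groups. Among the 221 kept calls is CCNE1 in the RT112 interaction, to which DESeq2 gave no adjusted p and so no call. Uncalled values near 0 changed sign with siFOXA1: CCND1 in RT112 (−0.07 with library size alone, −0.14 to 0.19 with a library left out), CDKN1A in RT112 (−0.15 to 0.40), CDKN1B in RT112 (−0.57 to 0.36) and RB1 in SCaBER (−0.03, and −0.09 to 0.17). Library size alone moved the median of all genes from −0.01 to −0.11 in RT112 with siFOXA1, and the share of higher calls there was 38.6% against 48.6%, and for the double knock-down against siControl 36.9% against 48.2%.

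The number of the 10 genes called moved by more than 1.5 times in the following cases, and the cause was not tested. Single calls gained or lost without such a move stand beside the results. The RT112 interaction had 0 with DESeq2, which gave CCNE1 no adjusted p. SCaBER siZBED2-2 had 2 with DESeq2. The SCaBER interaction had 2 with library size alone and 3 with no filter, DESeq2 or the replicate block. The line difference of siFOXA1 had 1 with no filter. The block changed no call of these genes other than those given beside the results. With a library left out the number ran from 3 to 6 for RT112 siFOXA1, 1 to 2 for RT112 siZBED2-1, 0 to 1 for the RT112 double knock-down against siFOXA1 and for the RT112 interaction, 1 to 1 for SCaBER siZBED2-1, 0 to 1 for SCaBER siZBED2-2, 3 to 4 for the SCaBER double knock-down against siControl and 0 to 3 against siFOXA1, 0 to 1 for the SCaBER siZBED2 siRNAs, 1 to 2 for the SCaBER interaction, 2 to 3 between lines under siControl and 1 to 3 for the line difference of siFOXA1.

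Over all genes, the calls with no filter, DESeq2 and the replicate block were 58, 66 and 44 for RT112 siZBED2-2 (22 as reported), 430, 396 and 444 for the RT112 double knock-down against siFOXA1 (260), 224, 248 and 212 for the RT112 interaction (81), and 215, 373 and 180 for the line difference of siZBED2-1 (109). The block gave 125 for SCaBER siZBED2-2 (82), 508 for the SCaBER interaction (300) and 597 for the line difference of siFOXA1 (382), where DESeq2 gave 915. With a library left out RT112 had 1869 to 2870 calls for siFOXA1, 589 to 752 for siZBED2-1, 14 to 42 for siZBED2-2, 1416 to 2552 for the double knock-down against siControl, 30 to 378 against siFOXA1, 487 to 667 between the ZBED2 siRNAs and 13 to 330 for the interaction. SCaBER had 302 to 450 for siZBED2-1, 34 to 81 for siZBED2-2, 809 to 1388 for the double knock-down against siControl, 211 to 583 against siFOXA1 and 233 to 303 between the ZBED2 siRNAs. The line differences had 199 to 565 for siFOXA1 and 64 to 98 for siZBED2-1. Depth limits CCNE1, with 2 to 56 counts per SCaBER library, and FOXA1 in SCaBER.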
